A study of Drosophila melanogaster with 6 samples.

Results

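Snmp, crq and Sr-CI encode 3 scavenger receptors of the fruit fly, surface proteins that bind modified lipids, lipid-coated ligands, dying cells or microbes. Snmp (current symbol Snmp1) and crq (croquemort) belong to the CD36 family, also called class B, whose proteins cross the membrane at both ends and form a large extracellular loop that handles lipids. Sr-CI is a class C receptor, a type known from insects that binds bacteria. Snmp1 is best known from olfactory neurons, where it is needed to detect the pheromone cis-vaccenyl acetate, and Croquemort from haemocytes, the fly's blood cells, where it takes part in the clearance of dying cells. The genes were selected by name, 1 row each of 8164 gene rows, and they were chosen from a list of genes whose difference between young and old flies was already known. Their fold changes and p-values are therefore given as a description, and nothing is inferred from the fact that all 3 differed.

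RNA was sequenced from midgut cells of yw flies that carry the driver esg-GAL4 NP5130 and the reporters UAS-GFP and UAS-GFPnlacZ (N 1099), and the cells were sorted by flow cytometry. The escargot driver is active in intestinal stem cells and in their immediate daughters, so the sorted population is enriched for stem cells and is not one cell type. Young flies were 6 to 8 days old and old flies 59 to 65 days, with 3 batches at each age, and both ages carry the driver and the reporters. The transcript of the driver gene itself, esg, had a mean level of 835 CPM (reads scaled to a common library size) in the authors' deposited table. All values come from the comparison of the ages that the authors deposited, which gives per row a log2 fold change, a p-value with its adjusted form and a mean level as log2 CPM, and no standard error. Columns per library carry names that match no sample label and were not used, so no value per sample, no depth and no spread between batches stands beside these results. The sources used here do not name the age that is the numerator of the fold change. A positive or a negative sign therefore says that genes differed in the same or in opposite directions, and not which age had more.

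Snmp and Sr-CI differed between the ages in one direction, and crq in the other. Snmp had 2.21 as its log2 fold change, a 4.63-fold difference, at a mean level of 8.02 CPM in the authors' deposited table (p = 1.14e-10, adjusted p = 1.5e-08). Sr-CI differed 3.48-fold, or 1.80 on the log2 scale, at a mean level of 2.65 CPM in the authors' deposited table (p = 8.54e-07, adjusted p = 4.81e-05). For crq the authors' deposited table gave -1.12 on the log2 scale, a 2.18-fold difference, at a mean of 226 CPM (p = 0.000537, adjusted p = 0.0113). Rows are described as called where the authors' adjusted p is under 0.05. That held for 580 of the 8164 rows, or 7.10%, with 422 rows (5.17%) of positive and 158 rows (1.94%) of negative sign. In bulk samples of this kind, fewer cells of a type and less RNA per cell cannot be told apart.

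**Figure D1:**
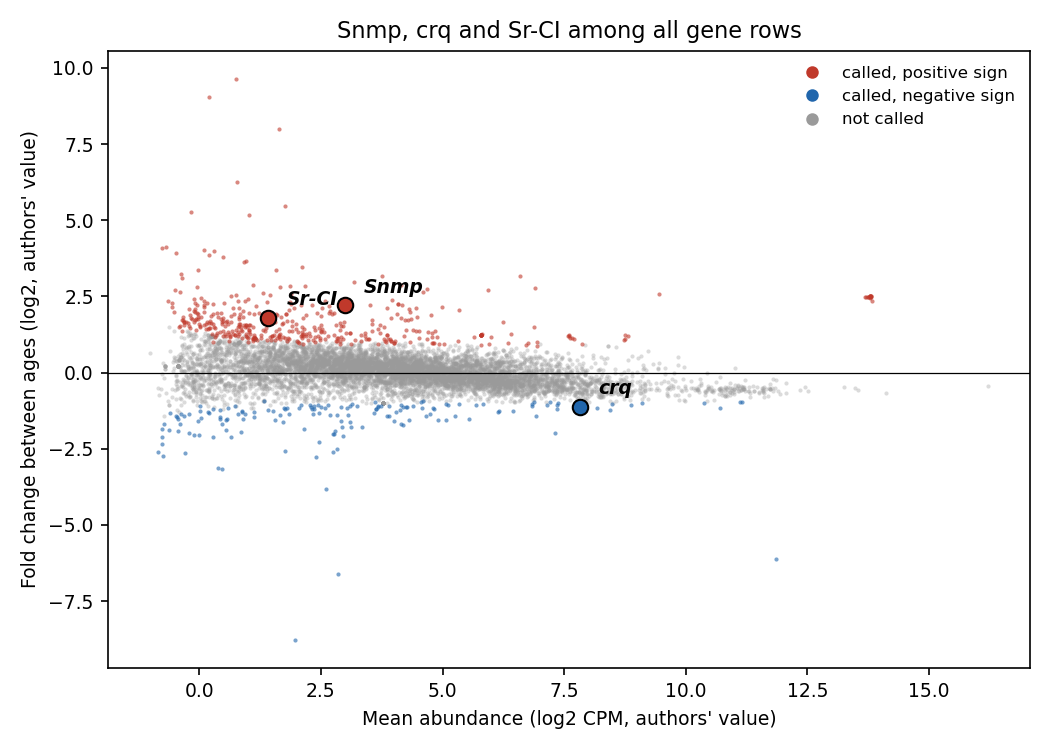
Log2 fold change between the ages (vertical axis) against mean level as log2 CPM (horizontal axis) for the 8164 gene rows of the authors' deposited table, with called rows in red (positive sign) and blue (negative sign). Snmp at 2.21 and Sr-CI at 1.80 lie above the grey mass of rows at low levels, and crq at -1.12 lies just below it among the abundant rows.

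The 3 genes occupied different places in the ranking of differences. By p-value Snmp ranked 62nd among all rows of the authors' deposited table, Sr-CI 145th and crq 388th. By size of the fold change Snmp was 83rd and Sr-CI 143rd of the 422 positive calls, whose median was 1.51 in the authors' deposited table. Both were thus above the middle of the positive calls. These ranks count every row, also 14 rows with a fold change and a level within 0.1 log2 units of sls. That muscle gene had 2.51, so these rows rank above Snmp. Among the 158 negative calls crq was 119th by size in the authors' deposited table, closer to zero than their median of -1.33. Its nearest neighbours in that order were CG11619 at -1.12 and CG9328 at -1.12 in the authors' deposited table. Snmp lay between CG6114 at 2.22 and CG8834 at 2.20 on the log2 scale in the authors' deposited table. The neighbours of Sr-CI in the order of the authors' deposited table were Ca-alpha1D, a calcium channel gene, at 1.81 and NPFR1, the receptor gene for neuropeptide F, at 1.80.

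Each gene was also set beside rows of like level, since the sign of the fold change moved with abundance across the authors' deposited table. Against the 350 rows within 0.5 log2 units of the mean level of crq, the median log2 fold change was -0.34 in the authors' deposited table, and 284 of these rows had a negative sign. The value of crq was -0.78 relative to that median, and 2 of the 350 rows had a more negative value. Among the 1196 rows with a level like that of Snmp the median was 0.22, and 2 rows had a larger positive value in the authors' deposited table. Snmp thus stood 1.99 above its like rows. Around Sr-CI the 820 rows of like level had a median of 0.32 in the authors' deposited table, and 30 of them had a larger positive value, so that Sr-CI stood 1.48 above the median. Calls were frequent at that low level, with 12.9% of rows called against 5.52% around Snmp and 3.43% around crq in the authors' deposited table.

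Per transcript length, crq was by far the most abundant of the 3. Its mean level was 81.6 CPM per kb of its longest annotated transcript in the row, against 4.11 CPM per kb for Snmp and 1.29 CPM per kb for Sr-CI. Of all rows in the authors' deposited table, 94.2% had a lower mean CPM than crq, 35.7% had a lower mean than Snmp and 15.9% a lower mean than Sr-CI. The mean does not say how a level splits between the ages.

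Snmp (FBgn0260004) lies on chromosome 3R from 16991220 to 16993927 of the dm3 build, on the minus strand. Its row counts transcript FBtr0084027, with 7 exons and 1949 bases in the BDGP6 annotation, which lists 2 transcripts for the gene. The whole span of 2708 bases lies inside the span of a row on the other strand, SNF4Agamma;CG5810, which holds the gene of the regulatory subunit of AMP-activated kinase. In the BDGP6 annotation, 0 of the 1949 exonic bases of Snmp are exonic in that row, so the gene lies between exons of that row. The library kit does not mark strand, so reads from both strands there cannot be told apart, and the share of such reads was not tested. The partner row had the opposite sign, at -0.37 on the log2 scale and 263 CPM in the authors' deposited table (adjusted p = 0.645).

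The crq gene (FBgn0015924) lies on 2L from 448254 to 453023 in dm3, on the minus strand. The row joins FBtr0078088 and FBtr0078087, 2 of 5 transcripts annotated in BDGP6, with up to 6 exons and 2775 bases. At its 3' end it overlaps ex, which encodes Expanded, an upstream component of the Hippo pathway, on the other strand. The overlap covers 448 bases of the crq span, and in BDGP6 all 448 lie in exons of both genes. Reads there cannot be assigned by strand, and their share was not tested. The row of ex had -0.48 on the log2 scale at 119 CPM in the authors' deposited table (adjusted p = 0.462), which is the same sign as crq at less than its size. On its 5' side crq is followed after 87 bases by CG4164 on the other strand, at 0.82 and 30.0 CPM in the authors' deposited table (adjusted p = 0.109).

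Sr-CI (FBgn0014033) lies on 2L from 4121721 to 4124002 in dm3, on the plus strand. Its row counts FBtr0077467, with 4 exons and 2055 bases, 1 of 2 transcripts in BDGP6. No other row overlaps its span, and within 50 kb of it only 1 row was found, that of ed, a cell adhesion gene, joined with a small nucleolar RNA. That row had -0.61 on the log2 scale at 143 CPM in the authors' deposited table (adjusted p = 0.322), opposite in sign to Sr-CI.

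Rows near the 3 genes were not called with them. Over all rows 7.10% were called, so few calls would be met among so few rows. Within 50 kb of Snmp there were 14 other rows, 0 of them called, with log2 fold changes from -0.64 to 0.47 and a median of 0.14 in the authors' deposited table. Around crq there were 12, with 0 called and a range from -0.59 to 1.03. The upper end of that range was CG13690 (adjusted p = 0.0540 in the authors' deposited table). Among the neighbours of Snmp was Obp93a, an odorant-binding protein gene, at 0.36 and 0.683 CPM in the authors' deposited table (adjusted p = 0.807).

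**Figure D2:**
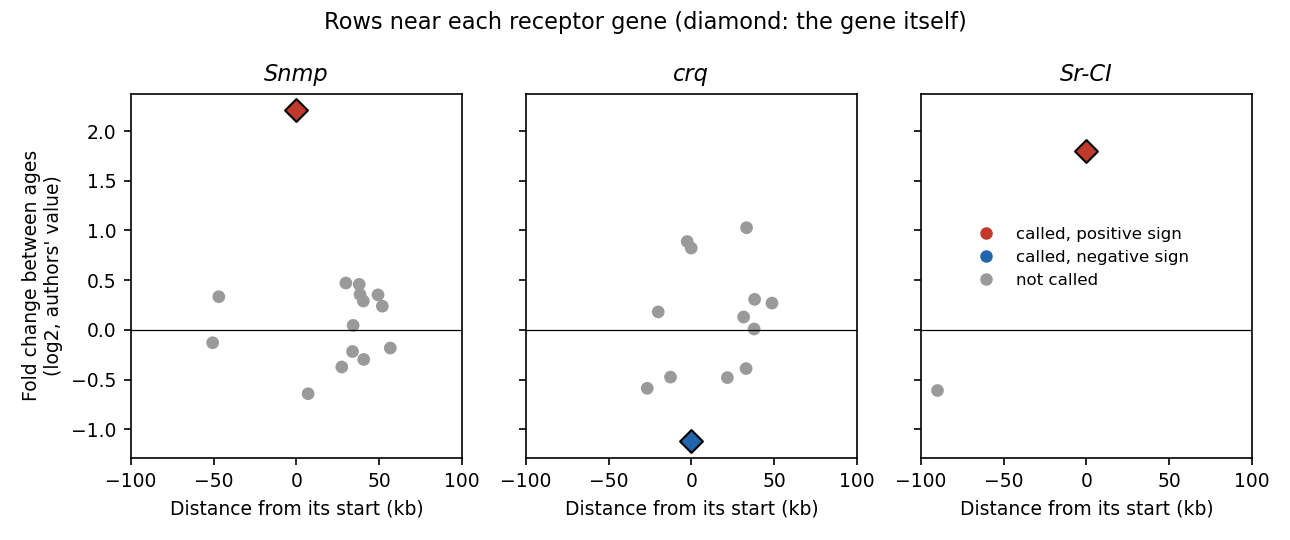
Log2 fold change between the ages (vertical axis) of each row whose span lies within 50 kb of that of Snmp, crq or Sr-CI, against the distance between start sites in kb (horizontal axis, positive in the direction of transcription), from the authors' deposited table. The diamonds are the 3 genes at 2.21, -1.12 and 1.80. Grey points are their 27 neighbours, none of which was called, while 7.10% of all rows were.

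The rest of the CD36 family went both ways. Of 14 family genes listed, 7 had a row analysed here, and of these 2 were positive calls, 1 was a negative call and 4 did not pass. Snmp and crq are 2 of the 3 called, so the count is not independent of how they were chosen, and it stands beside 7.10% of all rows. The median of the 7 was -0.12, against 0.05 over all rows of the authors' deposited table. The other call was CG40006 (chromosome 2L from 22515149 to 22649081 in dm3), a family member known only by its number. It had 1.31 on the log2 scale at 8.61 CPM in the authors' deposited table (adjusted p = 0.00205), the sign of Snmp, and no row overlaps its long span.

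The 4 family genes that did not pass ranged from -0.79 to 0.71 in the authors' deposited table. The gene pes (peste), known for uptake of mycobacteria by cultured fly cells, was at -0.12 and 88.9 CPM in the authors' deposited table (adjusted p = 0.951). CG7227 had 0.71 at 1.51 CPM (adjusted p = 0.227), emp -0.54 at 7.61 CPM (adjusted p = 0.410) and CG3829 -0.79 at 3.38 CPM (adjusted p = 0.191) in the authors' deposited table. Of these, CG7227 and CG3829 had an unadjusted p under 0.05, at 0.0390 and 0.0292 in the authors' deposited table. CG7227 lies 654 bases from pes and CG3829 1156 bases from emp, with 0 rows between them in either pair. The pair of pes and CG7227 had opposite signs, while emp and CG3829 shared the negative sign, and none of the 4 was called. Per transcript length, the family levels ran from crq at 81.6 and pes at 29.9 CPM per kb down to 0.667 CPM per kb for CG7227. The order between them was Snmp at 4.11, CG40006 at 3.32, emp at 2.91 and CG3829 at 1.07 CPM per kb. Whether neighbours in this order differ beyond the spread between batches was not tested.

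**Figure D3:**
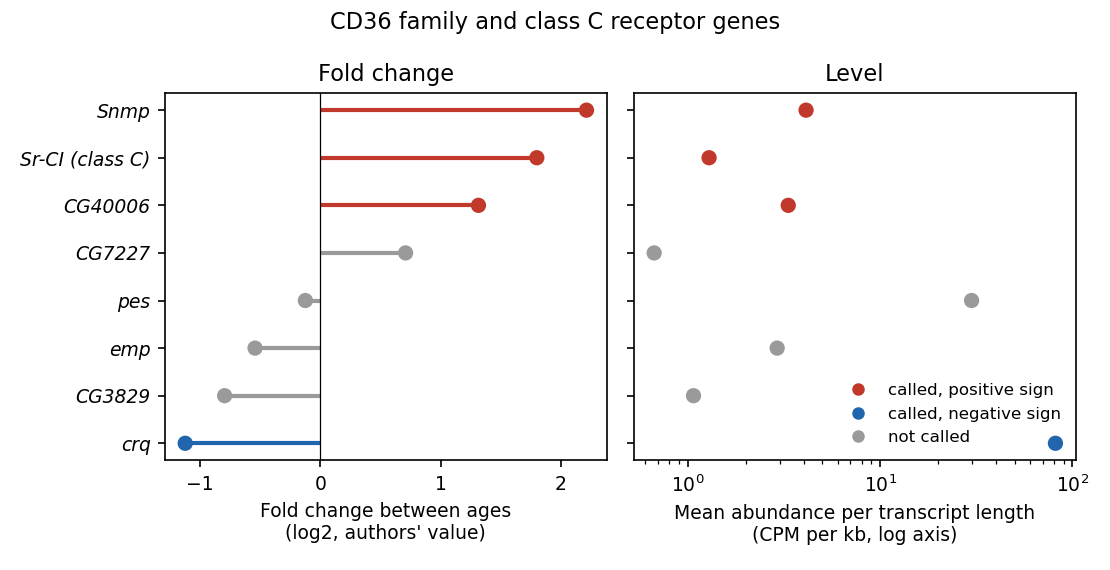
Log2 fold change between the ages in the authors' deposited table (left) and mean level in CPM per kb of transcript on a log axis (right) for the 7 CD36 family genes and Sr-CI. Snmp, Sr-CI and CG40006 are called on the positive side, and crq, the most abundant at 81.6 CPM per kb, is the call on the negative side.

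No row was found under the names of 7 listed family genes. These were ninaD and santa-maria, which serve carotenoid uptake for vision, and Snmp2, dsb, CG2736, bez and CG31741. Of the 4 class C genes, Sr-CI had a row, and none was found for Sr-CII, Sr-CIII and Sr-CIV.

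Receptors of other families that bind dying cells or microbes held no call. Of 22 listed genes 8 had a row of their own, and 2 of these had an unadjusted p under 0.05 in the authors' deposited table. The 0 calls among 8 rows stand beside 7.10% of all rows, a share at which few or none would be called. Of the 8, 7 had a negative sign, and the median was -0.52 in the authors' deposited table. Most rows of like level have a negative sign, except around Mcr and PGRP-LE, where the medians of such rows were 0.03 and 0.08. Relative to the median of rows of like level the 8 ranged from -0.88 to 0.37, with a median of -0.15. Mcr, a thioester protein relative, was at -0.85 in the authors' deposited table (adjusted p = 0.0853). PGRP-LC, the peptidoglycan receptor of the Imd pathway, was at -0.82 and 182 CPM in the authors' deposited table (adjusted p = 0.109). Dscam, an adhesion receptor also used by haemocytes, had -0.59 at 266 CPM in the authors' deposited table (adjusted p = 0.356). The integrin genes scb and betaInt-nu, whose products pair in phagocytosis by haemocytes, had -0.47 and -0.50 in the authors' deposited table (adjusted p = 0.524 and 0.479). PGRP-LE, a peptidoglycan sensor, was the exception in sign, at 0.45 in the authors' deposited table (adjusted p = 0.526). Draper, the engulfment receptor of glia and haemocytes, shared its row with CG18171 and Oseg4, and that row had 0.26 in the authors' deposited table (adjusted p = 0.659).

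Of 15 genes that act inside the cell during engulfment, 14 had a row of their own, and 1 was called, on the negative side, a share of 7.14% beside 7.10% of all rows. This was ced-6, the adaptor that binds Draper, at -1.10 and 13.4 CPM in the authors' deposited table (adjusted p = 0.0190). Its log2 fold change was near that of crq, at a lower level. Relative to rows of like level ced-6 was at -1.23 and crq at -0.78. The exchange factor gene mbc, which activates Rac, was at -0.89 in the authors' deposited table (adjusted p = 0.0834), and Ced-12, whose product works with it, at -0.03 (adjusted p = 0.983). The list's median was -0.42 in the authors' deposited table, with 10 negative and 4 positive signs. Relative to rows of like level the 14 ranged from -1.23 to 0.53, with a median of -0.16. Rac2 and Rac1 had -0.53 and 0.43 in the authors' deposited table (adjusted p = 0.465 and 0.538).

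Lipid uptake, the other known business of CD36 proteins, held 2 calls among 10 measured genes, or 20% beside 7.10% of all rows. Both had the sign of Snmp and both were at very low levels, where calls are frequent. Rfabg, the apolipophorin gene, had 1.62 at 1.15 CPM (adjusted p = 0.000601) and Npc2b, a sterol-binding protein gene, 1.76 at 0.959 CPM (adjusted p = 0.00941) in the authors' deposited table. Of rows at a level like theirs, 18.8% and 18.1% were called. More abundant genes of this list were not called, such as the lipase gene bmm at -0.74 and 208 CPM in the authors' deposited table (adjusted p = 0.169). The uncalled gene of smallest p in the list was mgl, in the row CG42611. It had -0.78 at 138 CPM in the authors' deposited table (p = 0.0187, adjusted p = 0.144). The lipoprotein receptor genes LpR1 and LpR2 had 0.26 and -0.50 in the authors' deposited table (adjusted p = 0.754 and 0.472). The median of the list was -0.06. Of 14 genes of pheromone and odour detection, the setting in which Snmp1 is best known, 2 had a row of their own. Of these 0 were called, beside 7.10% of all rows, with 0 unadjusted p under 0.05. The 2 were CG13568 (ppk29) at 0.62 and dsx at -0.05 in the authors' deposited table (adjusted p = 0.512 and 0.999). No row was found under the names of the pheromone receptor gene Or67d, the co-receptor gene Or83b and lush.

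**Figure D4:**
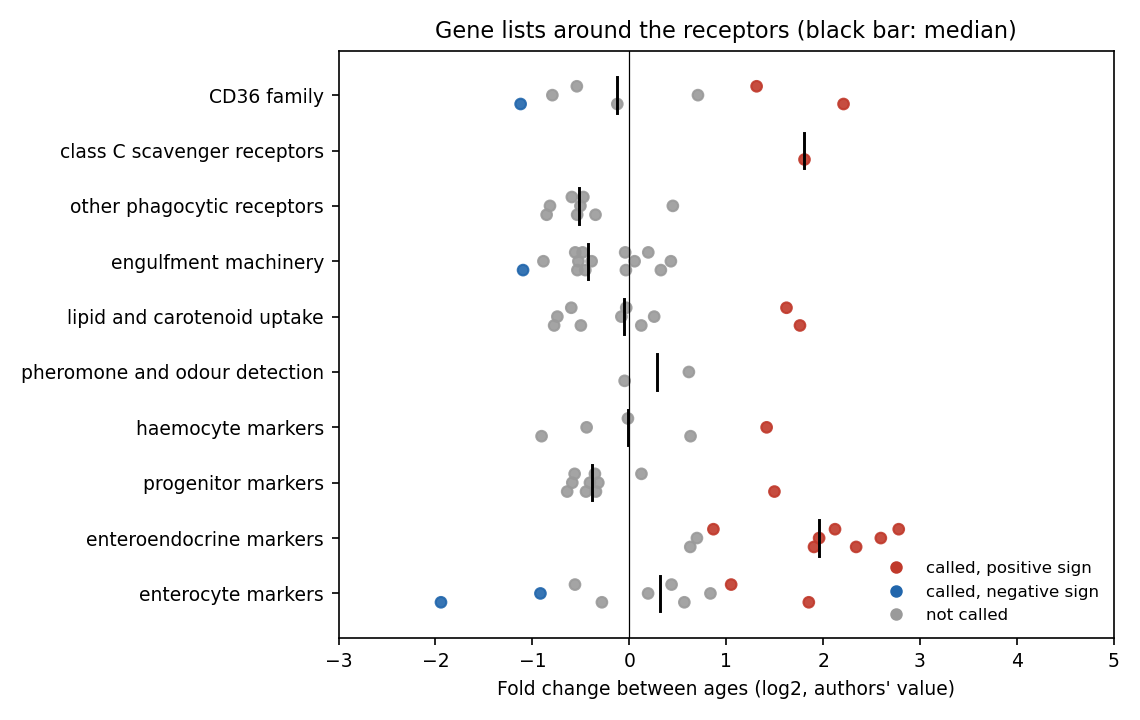
Log2 fold change between the ages in the authors' deposited table (horizontal axis) for each measured gene of 10 lists, with called genes in red and blue and the list median as a black bar. The other phagocytic receptors sit around -0.52 with no call, while 7.10% of all rows were called. The 9 enteroendocrine markers with a row of their own are all positive, and the CD36 family spans from -1.12 to 2.21.

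Markers of other cell types moved with both signs beside the receptors. Of 15 haemocyte markers, crq and Sr-CI left out, 5 had a row, with a summed level of 54.8 CPM over both ages in the authors' deposited table. Of the 5, 1 was called, or 20% beside 7.10% of all rows. This was lz, the Runx factor gene of crystal cells, at 1.42 and 12.8 CPM in the authors' deposited table (adjusted p = 0.000352). The GATA factor gene srp had -0.91 at 21.3 CPM (adjusted p = 0.0992) and the collagen gene Cg25C 0.63 at 4.60 CPM (adjusted p = 0.315) in the authors' deposited table. PPO3, listed as CG42640, had -0.44 in the authors' deposited table (adjusted p = 0.730) and ush -0.01. No row was found under the names of the defining haemocyte genes Hml, Pxn, He, NimC1 and eater. The label of a haemocyte receptor for crq and Sr-CI could therefore not be checked against them.

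All 9 enteroendocrine markers with a row of their own shared the sign of Snmp and Sr-CI, and 7 were called, or 77.8% beside 7.10% of all rows. Their median was 1.96 in the authors' deposited table, and 1.73 relative to rows of like level. The list was chosen with earlier results of these data known, so the count of calls is not independent of those results. The hormone gene Ast-C stood at 2.78 and 120.2 CPM, and amon, the gene of a prohormone convertase, at 1.91 and 27.3 CPM in the authors' deposited table. The other called hormone genes were CG13565 (Orcokinin) at 2.60 and 696 CPM, CG14358 (CCHa1) at 2.34, Ast at 2.12 and npf at 0.87, beside the vesicle gene Rab3 at 1.96, in the authors' deposited table. The listed hormone gene Dh31 shared a row with Bace, at -0.29 in the authors' deposited table (adjusted p = 0.953). The neuropeptide gene sNPF is in none of the lists and was chosen after its value was seen. It was called with the sign of crq, at -1.90 in the authors' deposited table (adjusted p = 1.5e-05). The part of such secretory cells in the values of Snmp and Sr-CI was not tested. Of 3 neuronal markers with a row, n-syb and brp were called, with 1.93 and 1.47 in the authors' deposited table (adjusted p = 1.66e-05 and 0.00412). The third, elav, had -0.31 (adjusted p = 0.804). Of rows at a level like those of n-syb and brp, 10.7% and 13.2% were called, beside 7.10% of all rows. Progenitor markers had a summed level of 3283 CPM over 10 rows, of which 8 had a negative sign. Of the 10, 1 was called, sna at 1.50 in the authors' deposited table, or 10% beside 7.10% of all rows. The median of the progenitor markers was -0.38, and relative to rows of like level it was 0.02.

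Enterocyte markers held 2 positive and 2 negative calls among 10 measured in the authors' deposited table, or 40% beside 7.10% of all rows. The list's median was 0.32. The digestive genes Jon25Bi and Jon99Ciii were the negative calls at -1.94 and -0.92, and LvpH and Jon65Aiii the positive ones at 1.85 and 1.05 in the authors' deposited table. Muscle markers were called positive in 2 of 4 rows, or 50% beside 7.10% of all rows. The 2 were up at 2.30 and 2.61 CPM and sls at 2.51 in the authors' deposited table. Of rows at a level like that of up, 12.9% were called. The value of sls is uncertain, because 14 rows, its own included, have a fold change and a level within 0.1 log2 units of it. Fbp1 was the 1 measured fat body marker, at -0.94 and 2.53 CPM in the authors' deposited table (adjusted p = 0.0381). Of rows at a level like that of Fbp1, 13.4% were called. The 1 tracheal marker measured, btl, shared a row with l(3)70Da at 0.18 in the authors' deposited table (adjusted p = 0.822). Whether these cell types contribute to the values of the 3 receptor genes was not tested.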

How the data were processed

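The series holds 6 RNA libraries of sorted midgut cells, 3 per age. The library kit was TruSeq RNA, per the labels' protocols, which does not mark strand. TopHat 1.2.0, Bowtie, FastQC, edgeR and the dm3 genome are named in the submitters' processing notes, without roles. Per the file headers, the authors deposited per gene row a log2 fold change, a mean level as log2 CPM, a p-value and its FDR, in 2 tables, and the second repeats those 580 rows whose FDR is under 0.05. The deposited FDR is the Benjamini-Hochberg form of the p-value across all genes of the table and is called adjusted p here. Each table has 12 further columns of values per library, whose names match no sample label and were not used, so the planned count model was not run.

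The members and lists were chosen with earlier results of these data known. Every measured family gene, every called list gene and otherwise the genes of smallest p were to be named, and a few more were added after their values were seen. Rows of several genes were left out of list counts. Transcript identifiers matched the BDGP6 annotation of Ensembl 115 in 94.6% of rows, which served for names, transcript lengths and exons. Coordinates are those of dm3, and 1 was added to each start, because on 2L 284 of 915 matched starts lay 1 base below the annotation, the commonest offset, while 262 ends were equal to it. Fold sizes, CPM from log2 CPM and CPM per kb were computed with pandas 2.3.3 and numpy 2.4.6 in Python 3.11.15, and figures with matplotlib 3.10.9. The adjustment was tested on simulated data. The separate batches per age are known from the series' design text, and precision per sample is unknown without depths.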

Additional observations from a re-analysis of the deposited data

How the results depend on the processing

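Each value keeps its sign by construction, since every alternative here only changes which rows count as called. Adjusted over rows of at least 5 CPM, crq had 0.0182 and Snmp 1.86e-08, and Sr-CI fell under that minimum. Under a Bonferroni adjustment over all rows, Snmp had 9.31e-07 and Sr-CI 0.00697, whereas crq had 1 and was no longer called. At a threshold of 0.01 the called rows numbered 376 of 8164. That left 2 in the CD36 family, because crq dropped out, and 0 in the engulfment list. It left 2 among enterocyte markers and 0 among fat body markers. At a minimum of 5 CPM there were 262 called rows. The rows that reach this minimum were not counted, so no share stands beside that number. That minimum left 0 calls among class C receptors, 0 in the lipid uptake list and 1 among muscle markers. It left 0 among fat body markers, 0 among neuronal markers, 6 among enteroendocrine markers and 3 among enterocyte markers. The called rows lost were Sr-CI, Rfabg, Npc2b, up, Fbp1, n-syb, brp, Ast and Jon25Bi. Each has a mean under 5 CPM and was removed for its level, so these counts do not test the calls. The 7575 rows of a single gene held 541 calls. Counting rows of several genes raised the neuronal calls to 3 and changed no other list's count. No paired analysis was possible because the library columns match no sample label, and for that reason leaving out each library, other scalings and a low-count filter were not run either. What depth limits could not be measured, since no depths are used here.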
